A study of Mus musculus with 6 samples.

Results

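The genes described here are the neuregulins Nrg1, Nrg2 and Nrg3 and the receptors Egfr, Erbb2, Erbb3 and Erbb4. They were taken by symbol, 7 of the 32285 genes counted in single nuclei of the mouse forebrain, and the rule names them without a measured value, although earlier results of these data were known when they were chosen. The study set 3 WT mice beside 3 Npc1-/- mice at P16 (postnatal day 16). NPC1 moves cholesterol out of late endosomes and lysosomes, and the mutant mice carry the Npc1 nih null allele in every cell. All mice were F1 hybrids of BALB/cJ and C57BL6/J Npc1+/- parents, littermates were used, and the animals were untreated. Nuclei came from flash-frozen forebrain and were run on the 10x Genomics Chromium system, which counts unique molecular identifiers (UMIs), 1 for each captured RNA molecule.

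Neuregulins are membrane-bound or shed ligands with an EGF-like domain. They bind ErbB3 and ErbB4, whereas the EGF receptor, encoded by Egfr, binds EGF, TGFα, HB-EGF and related ligands. ErbB2 has no known ligand and ErbB3 has little kinase activity of its own, so both work in pairs with another ErbB receptor. In the brain ErbB4 is best known from inhibitory interneurons, ErbB3 from cells that make myelin and EGFR from progenitors and astrocytes.

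The matrix held 75878 barcodes, and 75867 were kept after 11 with a mitochondrial share of 10% or more were left out. They carried 497727021 UMIs in 6 libraries, each marked by a barcode suffix of 1 to 6. The libraries held 8217 to 16118 barcodes, 51343653 to 107583300 UMIs and a median of 4469 to 5439 UMIs per nucleus. No key from suffix to mouse was found in the sources used here. Npc1 itself lay between 25.5 and 32.2 CPM (UMIs per 1000000 UMIs) in the libraries and assigned none of them. The genotypes were therefore not compared, all nuclei counted as 1 sample, no p-value was computed, and values are given over all nuclei, for the main results also in each library or as the range of the libraries. Clustering without the 7 genes gave 47 clusters, of which 28 were named from marker genes as 24 classes. Each class is called after the type its markers resemble, and 31.3% of nuclei stayed unnamed. Numbers of nuclei per library differed widely in some classes, and neuroblast-like nuclei numbered 97 to 723. Mature oligodendrocyte-like nuclei numbered 369, 426, 92, 71, 295 and 61 in libraries 1 to 6. Their values over all nuclei therefore lean on libraries 1, 2 and 5. The paper reports fewer immature and mature oligodendrocytes in Npc1-/- forebrain, a difference not examined here.

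UMIs of neuronal genes were found in glial and endothelial-like nuclei, and their level is given here to stand beside low values. The level of 10 neuronal reference genes in microglia-like nuclei was at the median 52.6% of that in neurons, with a range of 27.4% to 151%. The same median was 39.4% in OPC-like, 30.2% in immature and 19.6% in mature oligodendrocyte-like nuclei and 34.2% in astrocyte-like nuclei. In microglia-like nuclei Nrg1 stood at 33.8%, Nrg2 at 31.3% and Nrg3 at 39.8% of the neuronal level. These 3 values lie inside the range of the reference genes, and the part of RNA from other cells in the results was not tested.

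The members differ much in size and in the number of UMIs behind them. In the GRCm38 annotation Nrg1 covers chr8:31814551-32884029 on the minus strand, Nrg3 chr14:38368952-39473088 on the minus strand and Erbb4 chr1:68032186-69108059 on the minus strand, each over 1000 kb. Nrg2 covers chr18:36017652-36197380 on the minus strand and Egfr chr11:16752203-16918158 on the plus strand. Erbb2 covers chr11:98412470-98437716 on the plus strand and Erbb3 chr10:128567523-128589652 on the minus strand, 25.2 kb and 22.1 kb long. Over all nuclei Nrg3 had 2300764 UMIs, Nrg1 1393927 and Erbb4 644192, so that Nrg3 ranked 13 and Nrg1 26 among all genes. Nrg2 had 92398 UMIs and Egfr 26046. Erbb3 rested on 1868 UMIs and Erbb2 on 461, which is where counting error limits what follows. Levels are compared below for 1 member between classes, never between members, because UMI counts of nuclear RNA vary with gene length.

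Nrg1, the founding neuregulin, was highest in Rorb cortical and striatal projection neuron-like nuclei. In Rorb cortical neuron-like nuclei its level was 5881, 6404, 6041, 5712, 5967 and 6017 CPM in libraries 1 to 6, and 6011 CPM over all nuclei. Striatal projection neuron-like nuclei followed at 5497 CPM, between 5241 and 6042 in the libraries. The library ranges of these 2 classes overlapped, with the Rorb class higher in 5 of 6 libraries, and both ranges lay above every other class. Cortical and hippocampal excitatory neuron-like nuclei had 3980 CPM and upper-layer cortical neuron-like nuclei 3958. Layer 6 corticothalamic neuron-like nuclei had 3301 CPM and layer 5 projection neuron-like nuclei 2489.

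Other neurons had less Nrg1. Lhx6 interneuron-like nuclei had 1398 CPM, Adarb2 interneuron-like nuclei 1231, CA pyramidal neuron-like nuclei 1510 and dentate granule neuron-like nuclei 945. The microglia-like level, 1219 CPM with libraries from 808 to 1872, is given beside them, although these nuclei are shallower and Nrg1 was lower still in dentate granule neuron-like nuclei. Interneuron-like levels lay between 1077 and 1657 CPM in the libraries and so inside that span. Within libraries, the Lhx6 level fell short of the microglia-like one only in library 4 and the Adarb2 level only in libraries 3 and 4. The lowest level was in mature oligodendrocyte-like nuclei, with 427, 510, 591, 1026, 310 and 293 CPM in libraries 1 to 6 and 472 over all.

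Nrg2, a further ligand of ErbB3 and ErbB4, was highest in dentate granule neuron-like nuclei and striatal projection neuron-like nuclei. The dentate level was 362 CPM, between 322 and 384 in the libraries, and the striatal level 353 CPM, between 335 and 391. The ranges overlapped, and the striatal range lay above that of the next class, layer 5 projection neuron-like nuclei with 248 CPM. CA pyramidal neuron-like nuclei, also a hippocampal class, had 66.4 CPM, beside 69.1 in microglia-like nuclei. OPC-like nuclei had 164, 160, 198, 214, 200 and 195 CPM in libraries 1 to 6 and 186 over all, which is 84.2% of the neuronal level and inside the 17.9% to 113% of the neuronal reference genes in the same nuclei. In every library this was more than the microglia-like level, which lay between 45.5 and 100 CPM. Neuroblast-like nuclei had 227 CPM over all but 93.7 to 265 in the libraries, and library 3, the highest, held 723 of the 1397 nuclei.

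Nrg3, whose product binds ErbB4, was high in nearly every neuronal class and low in the striatum. Layer 5 projection neuron-like nuclei had 9705, 9596, 9359, 8245, 9287 and 10046 CPM in libraries 1 to 6 and 9331 over all. Layer 6 corticothalamic neuron-like nuclei had 8524 CPM and were lower than layer 5 in all 6 libraries, although the ranges overlapped. The layer 6 range lay above that of thalamic excitatory neuron-like nuclei, which had 6916 CPM. The 10 classes at the top of the order were all neuronal and ended with dentate granule neuron-like nuclei at 5697 CPM. Striatal projection neuron-like nuclei had 2070 CPM, between 1782 and 2631. Over all nuclei this was less than the 2330 CPM of microglia-like nuclei and close to the 2065 CPM of neuroblast-like nuclei. The striatal level was above the microglia-like one in libraries 2, 5 and 6 and below it elsewhere. OPC-like nuclei had 2646 CPM, which exceeded the microglia-like level in 5 of the 6 libraries and fell short of it in library 4.

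**Figure D1:**
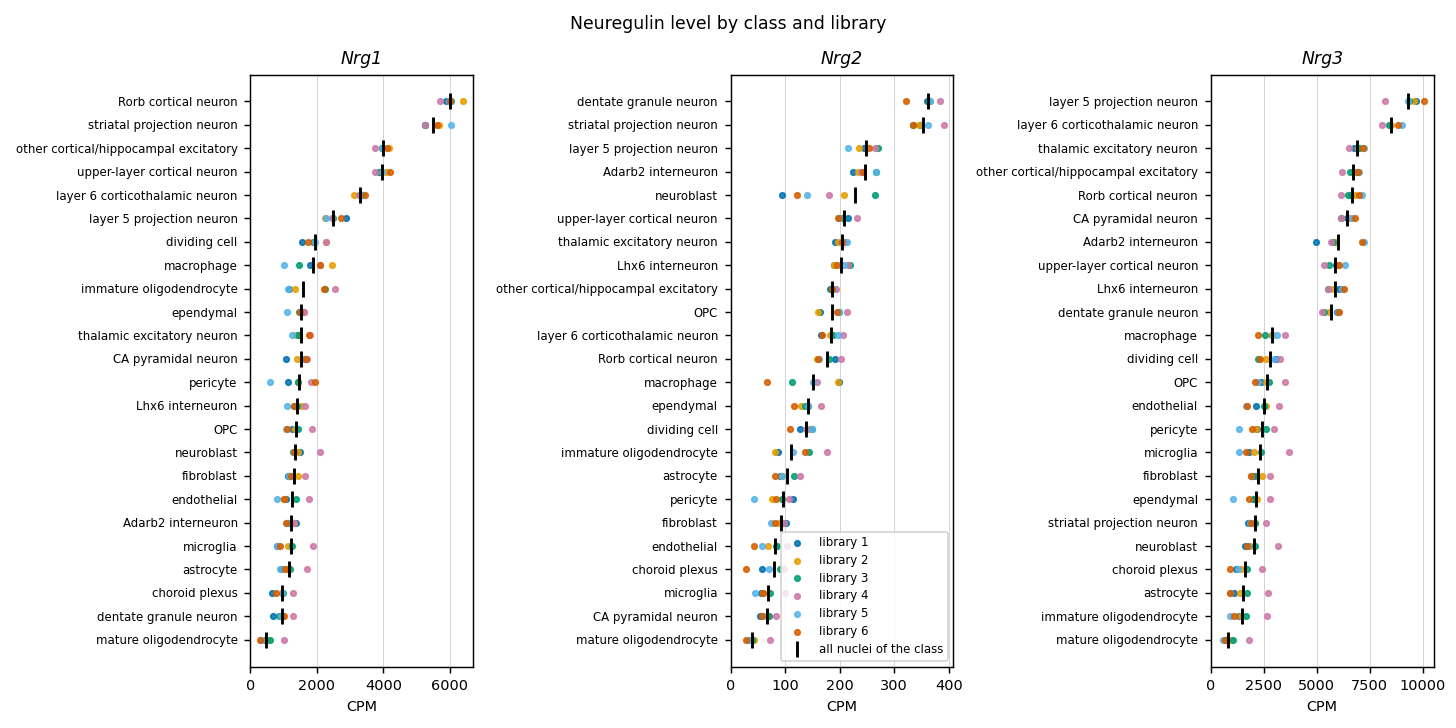
Level of Nrg1, Nrg2 and Nrg3 in CPM (linear axis) for the named classes, with 1 dot for each of the 6 libraries and a tick for all nuclei. Nrg1 peaks in Rorb cortical (6011 CPM) and striatal (5497 CPM) neuron-like nuclei, Nrg3 in layer 5 neuron-like nuclei (9331 CPM), and all 3 genes are lowest in mature oligodendrocyte-like nuclei.

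Erbb4, the receptor shared by the neuregulins, divided neurons sharply. In Adarb2 interneuron-like nuclei its level was 8510, 7927, 7368, 6627, 8736 and 9562 CPM in libraries 1 to 6, and 8054 over all. In Lhx6 interneuron-like nuclei it was 7236, 7978, 6956, 5549, 7667 and 7081 CPM, and 7071 over all. The 2 interneuron ranges overlapped, and both lay above every other named class. Excitatory classes held the bottom of the order, from 294 CPM in thalamic excitatory neuron-like nuclei to 139 CPM in upper-layer cortical neuron-like nuclei. All of these excitatory levels were below the microglia-like level of 706 CPM. Striatal projection neuron-like nuclei, which are inhibitory but not interneurons, had 690 CPM, between 562 and 775.

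Outside neurons, Erbb4 was highest in the oligodendrocyte lineage. Mature oligodendrocyte-like nuclei had 5037, 5025, 4567, 3523, 4983 and 4352 CPM in libraries 1 to 6 and 4875 over all. OPC-like nuclei had 2826 CPM, between 2500 and 3478, and immature oligodendrocyte-like nuclei 2639 CPM, between 2121 and 2953. The mature range lay above both, and those of OPC-like and immature nuclei overlapped. In each of the 3 classes every library lay above the highest microglia-like library, 987 CPM. Astrocyte-like nuclei had 925 CPM, between 774 and 1048, and this range overlapped that of microglia-like nuclei. Within every library, however, the astrocyte-like level was above the microglia-like one, most closely in library 4 at 1048 against 987 CPM.

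A UMI in a nucleus is a weak sign of expression for a gene as abundant as Erbb4. At least 1 Erbb4 UMI was found in 99.4% of Adarb2 and 96.6% of Lhx6 interneuron-like nuclei, but also in 64.6% of microglia-like and 63.6% of Rorb cortical neuron-like nuclei. The median depth was 2276.5 UMIs in microglia-like and 8513 in Rorb cortical neuron-like nuclei. When each nucleus was thinned to 2000 UMIs and shallower nuclei left out, the shares were 98.2%, 89.0%, 65.6% and 26.0% in the same order. Of these 4 classes the Rorb class was thus under the microglia-like share at equal depth and both interneuron classes were above it. OPC-like, mature and immature oligodendrocyte-like nuclei were above it too, with thinned shares of 98.0%, 97.7% and 94.1%.

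Egfr, the receptor for EGF and TGFα, was high in classes that otherwise share little. Adarb2 interneuron-like nuclei had 311, 351, 269, 301, 387 and 342 CPM in libraries 1 to 6 and 325 over all. Fibroblast-like nuclei had 321 CPM, between 288 and 389. They joined cluster 33 at 742 CPM and the larger cluster 14 at 147. Astrocyte-like nuclei had 304, 283, 276, 273, 428 and 366 CPM and 308 over all. These 3 classes overlapped one another, and the range of the third, astrocyte-like nuclei, lay above that of dividing cell-like nuclei, at 205 CPM. The other interneuron class was low: Lhx6 interneuron-like nuclei had 52.3 CPM, between 43.9 and 62.7. Egfr UMIs were found in 56.1% of Adarb2 and 54.96% of astrocyte-like nuclei, in 14.1% of Lhx6 interneuron-like and in 4.74% of microglia-like nuclei. Thinned to 2000 UMIs these shares were 37.2%, 40.7%, 6.30% and 4.40%. The order of the Adarb2 and astrocyte-like shares thus changed, and the Lhx6 share came near the microglia-like one. By level, however, the Lhx6 class was above the microglia-like class in all 6 libraries, and their ranges did not overlap. OPC-like nuclei had 20.99 CPM and mature oligodendrocyte-like nuclei 23.2, beside 23.5 in microglia-like nuclei. Excitatory cortical classes were at 4.26 to 8.44 CPM.

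**Figure D2:**
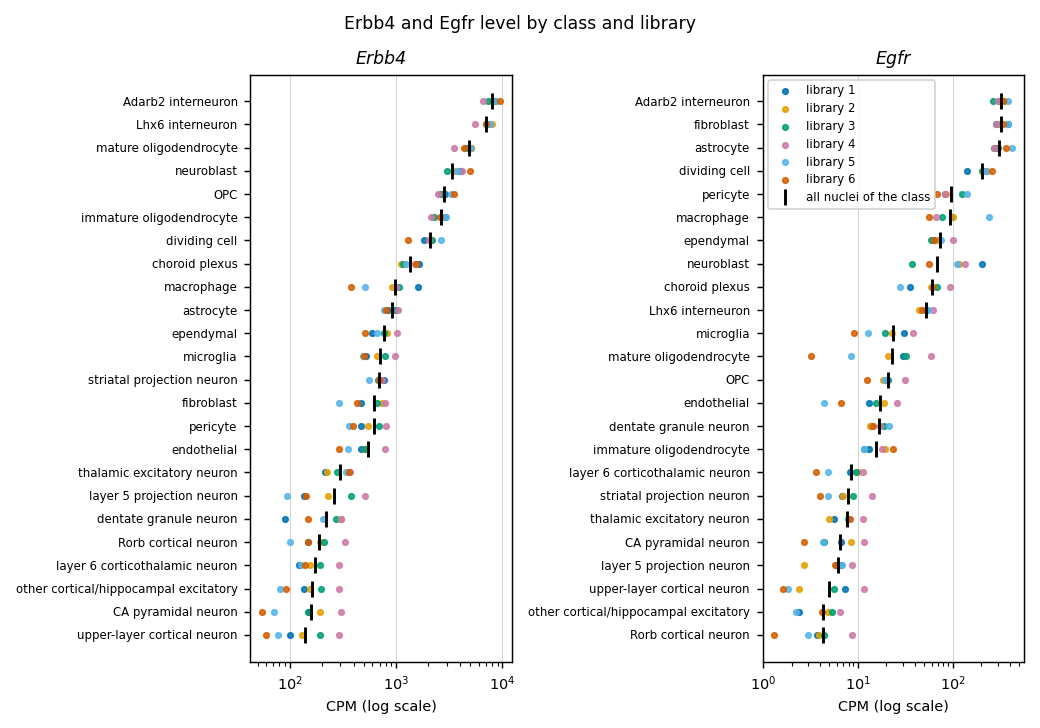
Level of Erbb4 and Egfr in CPM (log axis) for the named classes, with 1 dot for each library and a tick for all nuclei. Both interneuron-like classes lead for Erbb4 (8054 and 7071 CPM), whereas for Egfr the Adarb2 class has 325 CPM and the Lhx6 class 52.3.

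Erbb3, the receptor that needs a partner for its kinase activity, was concentrated in mature oligodendrocyte-like nuclei. Their level was 95.04, 119, 109, 88.5, 132 and 95.5 CPM in libraries 1 to 6 and 111 CPM over all, from 851 UMIs. OPC-like nuclei followed with 12.8, 16.9, 11.4, 11.6, 15.01 and 9.40 CPM and 13.3 over all. Immature oligodendrocyte-like nuclei had 18.3, 12.8, 3.59, 6.26, 14.9 and 7.83 CPM and 12.2 over all. The mature libraries stood apart from every other class, whereas OPC-like and immature libraries overlapped. UMIs were found in 42.0% of mature, 4.33% of immature and 4.16% of OPC-like nuclei, and in 0.459% of microglia-like nuclei. Thinned to 2000 UMIs, these shares were 20.1%, 2.08%, 2.68% and 0.397%.

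No neuronal class was above 1 CPM for Erbb3. In neuroblast-like and layer 5 projection neuron-like nuclei no Erbb3 UMI was counted, and 3 counts, the limit that a count of 0 allows, would be 0.501 and 0.705 CPM. Over all nuclei Erbb3 was 5.32, 6.02, 1.93, 1.77, 5.001 and 1.38 CPM in libraries 1 to 6, which held 369, 426, 92, 71, 295 and 61 mature oligodendrocyte-like nuclei. Within those nuclei the libraries differed much less, from 88.5 to 132 CPM.

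Erbb2, the receptor without a ligand, was counted too rarely to order neighbouring classes. Astrocyte-like nuclei gave 93 of its UMIs, at 3.01 CPM with 2.63 to 4.34 in the libraries. Fibroblast-like nuclei had 3.59 CPM from 41 UMIs and endothelial-like nuclei 3.42 from 43. Choroid plexus epithelial-like nuclei had 3.43 CPM from 8 UMIs. Mature oligodendrocyte-like nuclei had 0.523 CPM from 4 UMIs, immature ones 0.715 from 7 and OPC-like nuclei 0.0853 from 1. Microglia-like nuclei had 0.759 CPM from 5 UMIs. Counts this small cannot decide whether Erbb2 in the oligodendrocyte lineage differs from that level. The intervals and limits given cover counting error only.

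**Figure D3:**
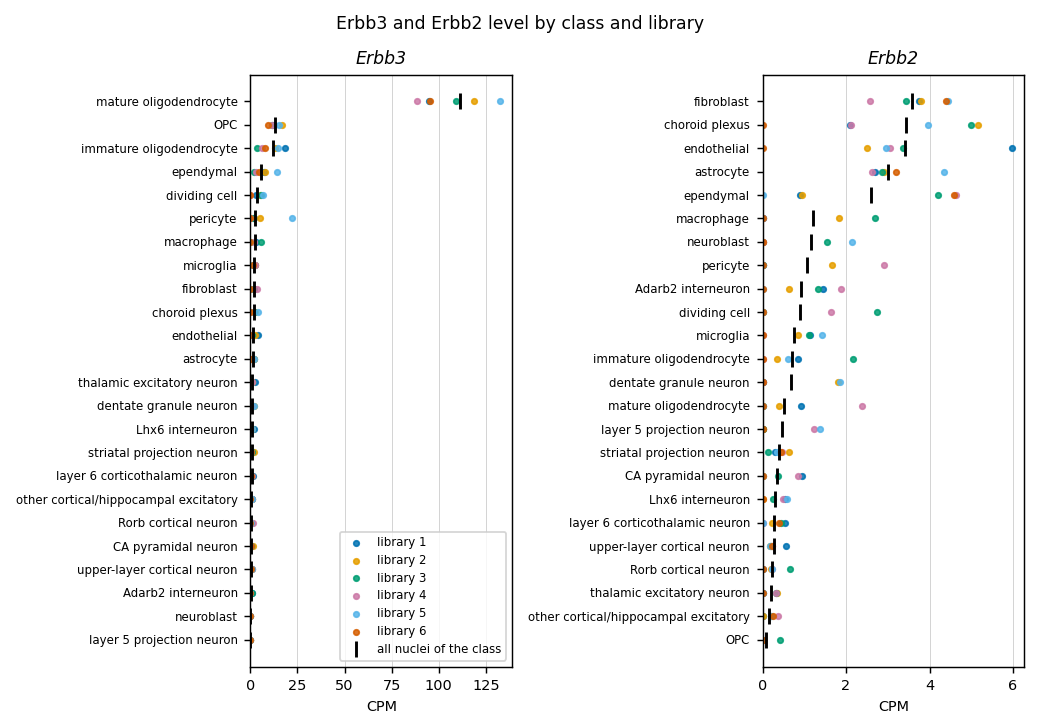
Level of Erbb3 and Erbb2 in CPM for the named classes, with 1 dot for each library and a tick for all nuclei. Mature oligodendrocyte-like nuclei stand apart for Erbb3 at 111 CPM, and over all nuclei no class passes 3.59 CPM for Erbb2.

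The classes were then compared in pairs as the log2 ratio of their CPM, with an exact 95% counting interval. A gene was counted as measured where at least 1 class of the pair reached 5 CPM, and as higher or lower where it differed at least 2-fold. The first pair asks how the interneuron-like classes differ jointly from the cortical excitatory neuron-like classes. The cortical and hippocampal excitatory neuron-like class was counted among the cortical excitatory ones. Erbb4 was 7319 CPM in interneuron-like and 169 CPM in excitatory nuclei, a log2 ratio of 5.44 (5.42 to 5.46) with libraries from 4.22 to 6.42. Egfr was 121 against 5.34 CPM, a log2 ratio of 4.50 (4.38 to 4.63) with libraries from 3.60 to 5.61. The Adarb2 class gave 2480 of the 3663 Egfr UMIs of interneuron-like nuclei from 1029 of the 3387 nuclei. Nrg1 went the other way, with 1336, 1460, 1325, 1583, 1109 and 1254 CPM in the interneuron-like nuclei of libraries 1 to 6 and 4049 to 4382 in the excitatory nuclei. Its log2 ratio was -1.65 (-1.67 to -1.64), and the groups did not overlap. Of the 5 members measured in this pair, 2 were higher and 1 lower at 2-fold, beside 11.2% of all 11797 genes measured that passed 2-fold in either direction.

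The other neuregulins differed little. Nrg3 had a log2 ratio of -0.23 (libraries -0.28 to -0.14) and Nrg2 one of 0.16 (0.05 to 0.26), both under 2-fold. The sign of the Nrg2 ratio changed with TMM scaling, which moved all genes by -0.158 in this pair and gave -0.0026. Of the other genes of the pathway, 35 of 43 were measured, 3 were higher and none lower. The 3 were Erbin, a scaffold that binds ErbB2, at 2.35, Hbegf, a ligand of EGFR, at 1.41 and Stat5b, a transcription factor downstream of the receptors, at 1.11. Hbegf was measured only through its 5.23 CPM in interneuron-like nuclei, beside 1.96, so its count as higher rests on the minimum level. The median log2 ratio of the 35 was 0.26 and that of all genes 0.13.

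In the striatum Nrg3 and Erbb4 passed 2-fold. Striatal projection neuron-like nuclei had 2070 CPM of Nrg3 against 6933 in cortical excitatory nuclei, a log2 ratio of -1.74 with libraries from -1.98 to -1.29. Erbb4 was higher by 2.03 (libraries 1.25 to 2.699), although over all nuclei both levels, 690 and 169 CPM, were below the microglia-like 706. Within libraries, the microglia-like level was above the striatal one in only 2 of 6. Thus 1 member was higher and 1 lower of 5 measured, where 13.9% of all genes passed 2-fold. Nrg2 at 0.88 and Nrg1 at 0.37 were above 0 in all 6 libraries and under 2-fold, but Nrg2 was 1.18 with the microglia-like level subtracted. Of 33 pathway genes measured 2 were higher and none lower: Tgfa, an EGFR ligand, at 4.35 and Erbin at 2.14. Tgfa was 111 CPM in striatal and 5.48 in cortical excitatory nuclei.

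Neuroblast-like nuclei, young neurons with Dlx genes and Dcx, had less Erbb4 and Nrg3 than interneuron-like nuclei. The log2 ratio of Erbb4 was -1.13 with libraries from -1.24 to -0.45 and was -0.90, under 2-fold, without library 3. Nrg3 had a log2 ratio of -1.51, between -1.92 and -0.82. Egfr at -0.83 (-1.55 to 0.73) and Nrg2 at 0.09 (-1.09 to 0.19) had libraries on both sides of 0, as had Nrg1 (-0.06 to 0.40). Egfr was at 0.016 without library 3, -1.01 without library 1 and -1.25 at resolution 0.5, so neither its sign nor its side of 2-fold was settled. Over all nuclei 2 of 5 members measured were lower and none higher, with 19.1% of all genes past 2-fold. Of 35 pathway genes 5 were higher and none lower, among them Tgfa at 1.65, Egf at 1.38 and the adaptor Gab1 at 1.36. Neuroblast-like nuclei of library 3 made up more than those of all other libraries together, so the values over all nuclei lean on that library.

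**Figure D4:**
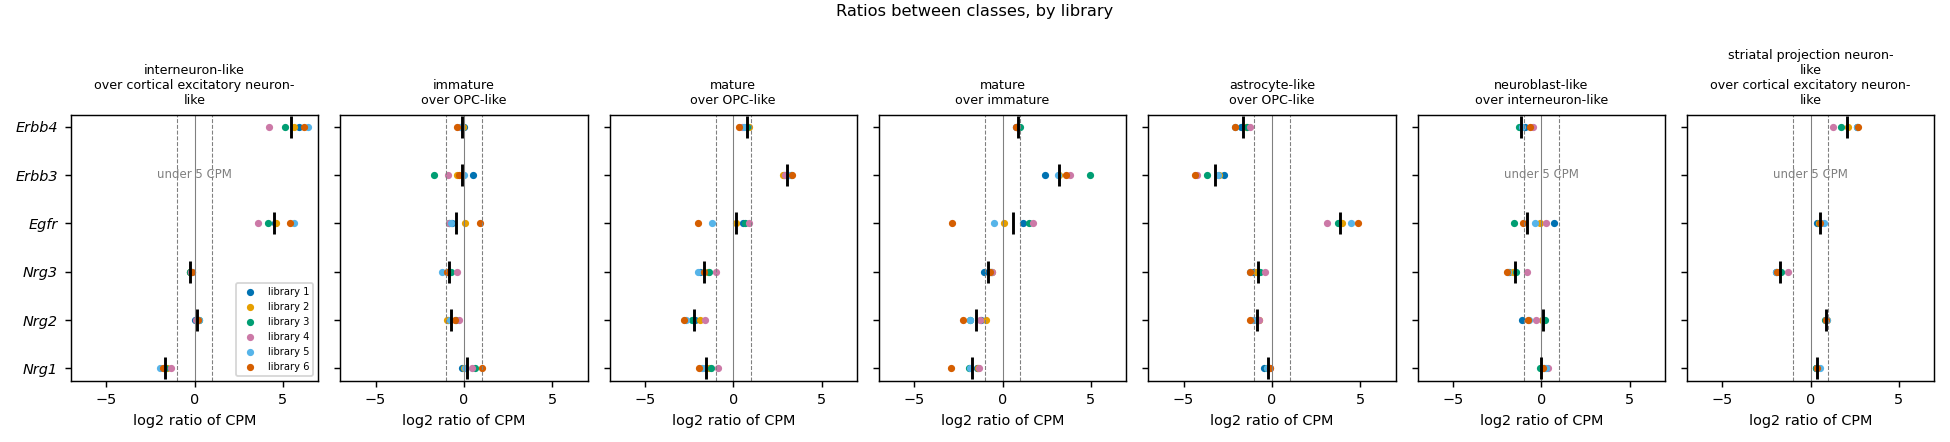
Log2 ratio of the members other than Erbb2 between pairs of classes, with a black tick for all nuclei, 1 dot for each library and dashed lines at 2-fold. Members under 5 CPM in both classes of a pair are marked as such in place of a ratio. Erbb4 (5.44) and Egfr (4.50) are far above 0 for interneuron-like over excitatory nuclei, and Erbb3 is near 0 for immature over OPC-like nuclei (-0.13) and above 2-fold for mature over OPC-like nuclei (3.06).

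The oligodendrocyte lineage runs from OPCs through immature to mature, myelin-forming oligodendrocytes. Between OPC-like and immature nuclei none of the 6 members measured passed 2-fold, where 12.7% of all 12628 genes measured did. Erbb3 had a log2 ratio of -0.13 (-0.49 to 0.22), with libraries at 0.51, -0.40, -1.67, -0.90, -0.02 and -0.26. The immature class joins clusters 19 and 27, and cluster 27, which had more Erbb3, made up 215, 224, 34, 32, 195 and 24 of the 473, 559, 305, 252, 371 and 141 immature nuclei in libraries 1 to 6. The part of this mix in the ratio was not tested. Erbb4 was at -0.10 (libraries -0.41 to 0.00), Nrg3 at -0.84 (-1.25 to -0.40) and Nrg2 at -0.75 (-0.96 to -0.28). Nrg1 was at 0.19 and Egfr at -0.44, each with libraries on both sides of 0. Alternatives took 5 of the 6 past 2-fold, Erbb3 among them at -1.45 with resolution 0.5. Subtraction of the microglia-like level put Nrg1 at 1.18 and Nrg2 at -1.31, and joined doublet clusters put Nrg3 at -1.26 and Egfr at -1.12, while Nrg3 was -1.08 without the highest doublet scores but -0.089 at the lower resolution.

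Of 37 pathway genes measured at this step 6 were higher and 5 lower. Pik3r3, a regulatory subunit of PI 3-kinase, was higher by 4.04, with 1828 CPM in immature and 111 in OPC-like nuclei. Bace2, a protease related to the neuregulin-cleaving Bace1, was higher by 3.44 and Ptpn11, which encodes the phosphatase SHP2, by 1.42. Bace2 was measured only through its 41.7 CPM in immature nuclei, beside 3.84 in OPC-like ones. Spry4, a feedback inhibitor of receptor tyrosine kinases, had a log2 ratio of -3.26, Cspg5, an EGF-domain proteoglycan, one of -2.66 and the adaptor Shc3 one of -2.38. Spry4 was measured only through its 23.6 CPM in OPC-like nuclei, beside 2.45 in immature ones. The median log2 ratio of the 37 was -0.15 and that of all genes -0.10.

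Mature oligodendrocyte-like nuclei differed from OPC-like nuclei in both ligands and receptors. Erbb3 was higher by a log2 ratio of 3.06 (2.82 to 3.32), with libraries at 2.89, 2.81, 3.26, 2.93, 3.14 and 3.35. Erbb4 was higher by 0.79 in all nuclei and by 0.32 to 0.90 in the libraries, under 2-fold. Nrg1 at -1.54 (libraries -1.91 to -0.85), Nrg2 at -2.23 (-2.77 to -1.58) and Nrg3 at -1.67 (-1.97 to -0.98) were lower. Beside them, the median of the neuronal reference genes stood at 39.4% of neurons in OPC-like and 19.6% in mature nuclei, and their part in the result was not tested. Joining the clusters of high doublet score to their classes, an alternative added after the data were seen, brought the 3 ligands to -0.53, -0.98 and -0.70, all under 2-fold. At resolution 0.5 Nrg1 was at -0.17 and Nrg3 at -0.43.

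Of 6 members measured in this pair 1 was higher and 3 were lower, beside 27.1% of all 12746 genes measured. Egfr was at 0.14, with libraries from -1.98 to 0.91, and turned to -1.48 with finer clusters. Erbb2 rested on 4 UMIs against 1, and its log2 ratio of 2.62 had an interval from -0.72 to 8.24, so no difference could be seen at this depth. Of 37 pathway genes 9 were higher and 8 lower. Bace2 at 3.68, the neuregulin-processing protease Adam19 at 2.31 and Erbin at 2.14 were highest, and Spry4 at -3.24, Cspg5 at -2.77 and Shc3 at -2.75 lowest. Bace2 was measured only through its 49.2 CPM in mature nuclei, beside 3.84 in OPC-like ones. Spry4 was measured only through its 23.6 CPM in OPC-like nuclei, beside 2.49 in mature ones. The median log2 ratio of the 37 was 0.04 and that of all genes -0.25. TMM scaling moved all genes by 0.226 and put Erbb4 at 1.01.

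The step from immature to mature held most of the Erbb3 difference. Its log2 ratio was 3.196 (2.92 to 3.49), with libraries at 2.38, 3.21, 4.93, 3.82, 3.16 and 3.61. Nrg1 was lower at -1.73 (libraries -2.91 to -1.32) and Nrg2 at -1.48 (-2.26 to -0.94), while Nrg3 at -0.83 and Erbb4 at 0.89 were under 2-fold. Nrg3 was -1.38 with the members kept in the clustering and 0.55, of the opposite sign, with the doublet clusters joined. Egfr was at 0.58 (libraries -2.88 to 1.74) and turned to -1.22 with finer clusters. TMM scaling, which moved all genes by 0.134 here, put Erbb4 at 1.02 and so past 2-fold, as did keeping the members in the clustering (1.03) and subtracting the microglia-like level (1.10). Of 6 members measured 1 was higher and 2 were lower, where 15.4% of all genes passed 2-fold. With the doublet-score clusters joined Nrg1 was at -0.23 and Nrg2 at -0.20, and neither was then past 2-fold. At resolution 0.5 they were at -0.90 and -0.72, also under 2-fold. Of 35 pathway genes 4 were higher, with Adam19 at 3.43, Erbin at 1.79 and Tmeff1, a transmembrane protein with an EGF-like domain, at 1.15. Of the 2 that were lower, Pik3r3 was at -2.79, back to 264 CPM, and Rhbdf1, which helps the sheddase ADAM17 mature, at -1.02. Rhbdf1 was measured only through its 5.31 CPM in immature nuclei, beside 2.62 in mature ones, so its count as lower rests on the minimum level.

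Astrocyte-like nuclei were set beside OPC-like nuclei as the other large glial class. Egfr was 308 against 20.99 CPM, a log2 ratio of 3.87 (3.69 to 4.06) with libraries at 3.88, 3.95, 3.76, 3.11, 4.46 and 4.87. Erbb3 was lower by a log2 ratio of -3.22 (libraries -4.36 to -2.695) and Erbb4 by -1.61 (-2.11 to -1.25). Erbb3, at 1.43 against 13.3 CPM, was measured only through OPC-like nuclei. Thus 1 of 6 members measured was higher and 2 were lower, and 16.8% of all 12996 genes measured passed 2-fold. Within the astrocyte-like class Erbb4 was 2037 CPM in cluster 13 and 550 in cluster 1, beside 2826 in OPC-like nuclei. Nrg2 was at -0.85 and Nrg3 at -0.80, below 0 in all libraries, and Nrg3 was -1.01 as the median over libraries. With the microglia-like level subtracted Erbb4 was at -3.13 and Nrg2 at -1.71. Of 37 pathway genes 2 were higher and 3 lower. Lrig1, a membrane protein that restrains ErbB receptors, at 3.72 and Hbegf at 1.20 were higher. Tgfa at -2.56, Spry4 at -1.60 and Adam19 at -1.35 were lower. Tgfa was 137 CPM in OPC-like and 23.2 in astrocyte-like nuclei, the opposite order from Egfr.

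Some classes held more than 1 cluster, and members differed between them. The pairs named here were chosen after their values were seen, so they are descriptions. Among astrocyte-like nuclei, cluster 13 (2029 nuclei, with the GABA transporter gene Slc6a11, Itih3 and Lgr6 among its 10 leading genes) had 2037 CPM of Erbb4, between 1945 and 2115 in the libraries. Cluster 1 (6255 nuclei, led by Phkg1, Gli2 and the glutamate transporter gene Slc1a3) had 550 CPM, between 375 and 753. The 2 sets of libraries did not overlap, and cluster 13 lay above the microglia-like range of 486 to 987 CPM, which cluster 1 overlapped and also reached below. Egfr was 263 CPM in cluster 13 and 323 in cluster 1, higher in cluster 1 in all 6 libraries.

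Among immature nuclei, cluster 27 (724 nuclei, 24 to 224 per library) had 20.3 CPM of Erbb3 and cluster 19 (1377 nuclei) 5.42. The log2 ratio was 1.90 (1.28 to 2.56), and cluster 27 was higher in 5 of 6 libraries. Cluster 27 also had more Erbb4, 3259 against 2124 CPM, and less Nrg1, 871 against 2149, in all 6 libraries. Its best marker score after the immature class was that of mature oligodendrocytes, whereas for cluster 19 it was that of OPCs. In cluster 27 15.3% of nuclei were among the highest doublet scores and in cluster 19 1.89%, and their part in the result was not tested.

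Among fibroblast-like nuclei, cluster 33 (580 nuclei) had 742 CPM of Egfr, between 652 and 988, and cluster 14 (1677 nuclei) 147, between 122 and 229. Among interneurons, the Adarb2 and Lhx6 classes are 1 cluster each, with a log2 ratio of Egfr of 2.64 (2.54 to 2.74). Finer clustering split the Adarb2 nuclei. A cluster of 347 nuclei with Reln, Kit and Adarb2 among its leading genes had 613 CPM of Egfr, and 1 of 676 nuclei led by Adarb2 with Vip had 187. Erbb4 was 9388 and 7483 CPM in the same clusters. The largest Lhx6 cluster at that resolution, with 2025 nuclei, had 50.9 CPM of Egfr and 8340 of Erbb4, and Erbb4 itself was among its 10 leading genes although it was not used for clustering.

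**Figure D5:**
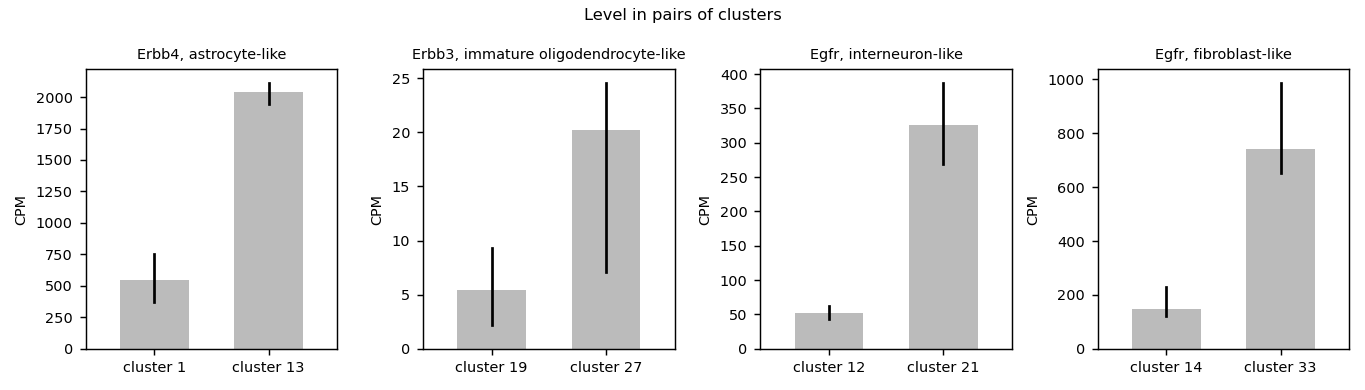
Level in CPM of members in pairs of clusters, with bars for all nuclei (from 0) and vertical lines from the lowest to the highest library. Each pair is of 1 class, except the interneuron-like pair, which is of the Adarb2 and Lhx6 classes. Erbb4 in the astrocyte-like clusters (2037 and 550 CPM), Erbb3 in the immature clusters (20.3 and 5.42 CPM) and Egfr in the interneuron-like (325 and 52.3 CPM) and fibroblast-like clusters (742 and 147 CPM) differ.

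Receptors that pair were looked for in the same nuclei. Of 1314 mature oligodendrocyte-like nuclei 552 had an Erbb3 UMI, and all 552 also had an Erbb4 UMI, which 1307 of the nuclei had. An Erbb2 UMI was found in 4 of them, 3 with Erbb3. Of 3412 OPC-like nuclei 142 had Erbb3 and all 142 had Erbb4, and 3360 had Erbb4. Of 8284 astrocyte-like nuclei 4553 had Egfr and 91 Erbb2, and 56 had both. These counts move with the depth of a nucleus, and Erbb2 UMIs were too few to look for pairs at this depth.

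For each member the 3 genes of most similar pattern were found, by Pearson's r of log2(CPM + 1) over the 24 classes among 16661 genes. The classes share libraries and RNA from other cells, so r is a description. Erbb3 was most like Ninj2 (r = 0.960), Ugt8a (0.939), which encodes the enzyme that makes galactosylceramide, and Gjc3 (0.936), a connexin gene of myelinating glia. Erbb4 was most like Sox2ot (0.931), Dusp10 (0.895), a MAP kinase phosphatase gene, and Gfpt2 (0.876). Erbb2 was most like Pdgfd (0.919), Smad6 (0.918) and Aox1 (0.912), on few Erbb2 UMIs. Nrg1 was most like Gm45304 (0.911), Dclk3 (0.880) and Gm15810 (0.876), and Gm45304 lies 150.7 kb from Nrg1 on the same strand.

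For the others the most similar gene was an antisense gene inside the member itself. They were Nrg3os (0.992) and Gm20642 (0.988) for Nrg3, before Ppfia3 (0.967), 4930471G03Rik (0.957) for Nrg2, before Lonrf2 (0.890) and Scn3a (0.873), and Egfros (0.988) for Egfr, before Gm29683 (0.868) and Hapln1 (0.864). Their UMIs were 6.06% and 4.88% of those of Nrg3, 2.41% of those of Nrg2 and 11.5% of those of Egfr. The sources used here do not say whether the counting used strand, so reads of a gene and its antisense partner may not be told apart. Erbb2 shares 9 bases at its 3′ end with Mien1 on the other strand.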

How the data were processed

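Nuclei of 3 WT and 3 Npc1-/- forebrains were profiled. The authors deposited 1 matrix of raw UMI counts for all 6 libraries, made per the labels with Cell Ranger 2.1.1 on mm10. The matrix header names cellranger 6.0.0, and the study's methods name STARsolo, EmptyDrops and DoubletFinder. The sources used here do not say which of these steps the matrix had passed or whether intronic reads were counted. The design text states about 10000 cells a sample, and the libraries held 8217 to 16118 barcodes. Since 11 of 75878 barcodes had a mitochondrial share of 10% or more, they were left out. Of the barcode sequences, 631 occurred in more than 1 library.

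From these counts, 3000 variable genes without the members and 43 pathway genes (8 genes fell out, 2 of them members), 30 principal components, 20 neighbours and Leiden resolution 1.0 (Python 3.11.15, scanpy 1.11.5, leidenalg 0.10.2) gave 47 clusters. Clusters were named from fixed markers, with a score of at least 0.9 and a gap of at least 0.25 to the next class, limits set after the clusters were seen. No doublets were removed, but 11 clusters (5076 nuclei) with at least 50% of nuclei among the 10% highest doublet scores of their library stayed unnamed. Levels are summed UMIs scaled to CPM (1000000 UMIs). Ratios carry an exact binomial interval (95%), and TMM factors came from edgeR 4.0.16. Interval coverage was checked on simulated counts with Poisson error only. The simulation held no spread between libraries, so it says nothing about coverage beyond counting error. Named were all 7 members, the 3 pathway genes highest and lowest among those past 2-fold and of 1 direction in 6 libraries, and the 3 genes most like each member. Members, lists and markers were chosen with earlier results of these data known.

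Alternatives were resolutions 0.5 and 2.0, members kept in the clustering, at least 1000 UMIs a nucleus, removal of the highest doublet scores, TMM scaling, means over nuclei, medians over libraries, subtraction of the microglia-like level, no minimum level, each library left out, and, added after the data were seen, joined doublet clusters and thinning to 2000 UMIs. The genotypes were not compared because the barcodes are not keyed to mice.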

Additional observations from a re-analysis of the deposited data

How the results depend on the processing

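No paired analysis was possible because the replicate numbers of the labels could not be tied to the barcode suffixes and no result comes from a test. This concerns the mice only, since the classes were paired within each library as ratios. Of the 8 ratios that answer a comparison, 106 values under the alternatives stayed within the range of the libraries on the same side of 0 and of 2-fold, and 25 did not. For Erbb2 in mature over OPC-like nuclei no library gave a finite ratio, because none held its UMIs in both classes. Its 14 values, from 0.57 to 2.84, had no library range to stay within. Only 1 of them was counted as staying, and for this ratio the count decides nothing. In interneuron-like over excitatory nuclei, Nrg3 was -0.31 at resolution 0.5, -0.39 with TMM scaling and -0.36 with the microglia-like level subtracted. Nrg1 there was -2.08 at resolution 2.0, -1.97 without the highest doublet scores and -3.93 with the microglia-like level subtracted, which leaves little of the interneuron-like level. Nrg2 there was 0.045 at resolution 2.0 and -0.0026 with TMM scaling. Erbb3 in immature over OPC-like nuclei was -1.45 at resolution 0.5 and 0.40 with the doublet clusters joined, so its sign rests on how nuclei are assigned. Erbb3 in mature over OPC-like nuclei was 2.39 at resolution 0.5, and Egfr in astrocyte-like over OPC-like nuclei was 2.96 with the doublet clusters joined. Erbb2 in mature over OPC-like nuclei was 2.66 and 1.76 at resolutions 0.5 and 2.0, 2.26 with the members kept in the clustering, 2.62 from 1000 UMIs up, 1.76 without the highest doublet scores, 2.84 with TMM scaling, 2.36 as a mean over nuclei and 2.19 thinned. At resolution 2.0 Egfr turned to -1.48 in mature over OPC-like and -1.22 in mature over immature nuclei. The causes were not tested. At resolution 0.5 Erbb4 in neuroblast-like over interneuron-like nuclei was at -0.66, under 2-fold.

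With each library left out in turn, Erbb4 in interneuron-like over excitatory nuclei ranged from 5.29 to 5.76, Nrg1 from -1.72 to -1.60, Nrg2 from 0.13 to 0.18 and Nrg3 from -0.25 to -0.22. Erbb3 ranged from -0.39 to -0.03 in immature and from 3.01 to 3.14 in mature over OPC-like nuclei, Egfr from 3.77 to 4.06 in astrocyte-like over OPC-like nuclei, and Erbb2 from 1.83 to 2.73, with no value without library 3, which held its only OPC-like UMI. Subtraction of the microglia-like level gave no value for 30 of 49 ratios, and of the 19 it gave 12 left the range of the libraries or changed side of 2-fold or 0. Among those without a value were Erbb4 in interneuron-like over excitatory nuclei, Erbb2 in mature over OPC-like nuclei and Egfr in astrocyte-like over OPC-like nuclei, because 1 or both classes then fell to 0 or below. Without a minimum level, 7599, 6753, 9353, 7293, 8128, 9748 and 7980 genes passed 2-fold in place of 1321, 1605, 3448, 1909, 2183, 2395 and 1629, in the order interneuron-like over excitatory, immature over OPC-like, mature over OPC-like, mature over immature, astrocyte-like over OPC-like, neuroblast-like over interneuron-like and striatal over excitatory. The 21 most similar genes were the same without it. Depth limits Erbb2 (461 UMIs) throughout and Erbb3 outside mature oligodendrocyte-like nuclei.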

Other observations

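Several clusters that received no name had high levels of members. Cluster 37 (411 nuclei, with Tshz1 and Foxp2 among its leading genes) had 7853 CPM of Erbb4, between 6712 and 9983 in the libraries, and 7.53 CPM of Egfr. Its Erbb4 level was thus in the range of the interneuron-like classes, while its Egfr level was below that of both. Cluster 3 (5224 nuclei, led by Baiap3) had 1367 CPM of Erbb4, 2693 of Nrg1 and 5262 of Nrg3. Cluster 5 (3213 nuclei, with Tfap2d and Abi3bp among its leading genes) had 336 CPM of Erbb4, 3463 of Nrg1 and 6676 of Nrg3.

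Cluster 29 (703 nuclei) carried the markers of mature oligodendrocytes but had 55.05% of its nuclei among the highest doublet scores. Its Erbb3 level was 34.8 CPM, between 25.6 and 38.9 in the libraries, below the 88.5 CPM of the lowest library of mature oligodendrocyte-like nuclei. Its Nrg1 level was 2319 CPM and its Nrg3 level 3665, against 472 and 831 CPM in mature oligodendrocyte-like nuclei.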
